A study of Homo sapiens with 10 samples.

Results

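Semaphorins of class 3 and class 5 are guidance ligands, and 9 genes of these classes were followed here: SEMA3A, SEMA3B, SEMA3C, SEMA3D, SEMA3E, SEMA3F, SEMA3G, SEMA5A and SEMA5B. The 9 members were chosen by name from the 61587 gene rows of a count table, and the family was chosen because SEMA5B had one of the largest falls in the comparison reported here. Its level is therefore given as a description with no test, and the other members are tested. The measurements came from bulk RNA-seq of RPTEC/TERT1, a line of human renal proximal tubule epithelial cells immortalised with telomerase. The study used irradiation to make these cells senescent, and the comparison asks which genes differ a week later. The 5 irradiated samples received 10 Gy of gamma rays from a caesium source and the 5 controls were mock-irradiated; both groups were harvested at day 7, and no other agent or allele separates them. The cell line label runs from RPTEC/TERT1 to RPTEC/TERT10 over the 10 samples, whereas the series' design names RPTEC/TERT1 alone, and the samples are treated here as 1 immortalised line. Nothing in the labels says that the samples came from separate cultures, so p-values measure the spread between these samples, which may be technical. Samples with the same replicate number form a pair across the groups.

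Class 3 semaphorins are secreted proteins that bind a neuropilin, which in turn engages a plexin as the signalling receptor; SEMA3E can bind plexin D1 directly. Class 5 semaphorins span the membrane and carry thrombospondin repeats outside the cell. First described as cues that repel growing axons, the family also acts on endothelial and epithelial migration, and in the developing kidney class 3 members shape ureteric bud branching and the glomerular filter. Furin-like convertases cleave class 3 semaphorins, and vascular endothelial growth factors share the neuropilins with them.

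The 9 genes lie on 3 chromosomes (GRCh38). SEMA5B, ENSG00000082684, occupies 119.5 kb of the minus strand of chromosome 3, from 122909082 to 123028605. SEMA5A, ENSG00000112902, covers 511.0 kb of the minus strand of chromosome 5, from 9035033 to 9546075. SEMA3F, ENSG00000001617, and SEMA3B, ENSG00000012171, are both on the plus strand of chromosome 3 and 78.5 kb apart, the first from 50155045 to 50189075 and the second from 50267558 to 50277546. SEMA3G, ENSG00000010319, is further along the same chromosome on the minus strand, from 52433035 to 52445103. SEMA3C, SEMA3E, SEMA3A and SEMA3D stand in that order within 4.44 Mb of chromosome 7, all on the minus strand, between 80742538 and 85187056. Exons of genes on the opposite strand covered at most 3.54% of any member's exon length (SEMA5A).

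RefSeq promoter windows (GRCh38.p14), from 250 bases before to 50 bases after an annotated start, were matched for 8 of the 9 members, 18 windows in all. The 3 SEMA5B windows are shown because this gene stood apart from its family. Contrasts are the window of SEMA5A, the other class 5 gene, and the first window of SEMA3F, the class 3 gene with the largest rise. The later windows of SEMA3F, which held fewer GC boxes, are not printed. Each is printed 5′ to 3′ on the strand of its gene, and capitals mark a match, on either strand, to any of the 5 motifs searched: the GC box GGGCGG, the CCAAT box CCAAT, the TATA box TATAAA, the AP-1 site TGANTCA and the E-box CACGTG. Overlapping matches were each counted.
SEMA5B, upstream start, chr3:123028556-123028855, minus strand: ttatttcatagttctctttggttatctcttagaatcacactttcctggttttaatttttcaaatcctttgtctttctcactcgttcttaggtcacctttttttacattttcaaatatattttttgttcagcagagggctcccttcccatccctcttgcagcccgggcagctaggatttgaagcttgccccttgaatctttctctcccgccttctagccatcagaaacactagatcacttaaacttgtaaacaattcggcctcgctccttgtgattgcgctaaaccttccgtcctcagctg
SEMA5B, middle start, chr3:123027714-123028013, minus strand: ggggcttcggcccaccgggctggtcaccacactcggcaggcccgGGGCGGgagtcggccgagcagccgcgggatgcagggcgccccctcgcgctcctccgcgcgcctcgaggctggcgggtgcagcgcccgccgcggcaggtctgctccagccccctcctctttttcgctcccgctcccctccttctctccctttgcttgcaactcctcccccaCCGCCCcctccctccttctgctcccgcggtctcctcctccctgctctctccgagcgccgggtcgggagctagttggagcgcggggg
SEMA5B, downstream start, chr3:122993189-122993488, minus strand: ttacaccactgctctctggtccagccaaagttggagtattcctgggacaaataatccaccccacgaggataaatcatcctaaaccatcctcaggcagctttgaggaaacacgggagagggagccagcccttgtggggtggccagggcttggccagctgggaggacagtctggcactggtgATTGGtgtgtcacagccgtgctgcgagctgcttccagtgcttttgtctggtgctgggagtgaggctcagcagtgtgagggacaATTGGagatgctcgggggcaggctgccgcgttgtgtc
SEMA5A, chr5:9546026-9546325, minus strand: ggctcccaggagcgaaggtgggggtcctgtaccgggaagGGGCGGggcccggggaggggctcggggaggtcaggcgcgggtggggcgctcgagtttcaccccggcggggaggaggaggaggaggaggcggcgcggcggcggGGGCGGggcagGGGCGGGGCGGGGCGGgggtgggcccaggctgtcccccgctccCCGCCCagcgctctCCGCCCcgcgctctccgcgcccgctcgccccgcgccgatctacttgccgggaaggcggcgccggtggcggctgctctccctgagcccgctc
SEMA3F, first start, chr3:50154808-50155107, plus strand: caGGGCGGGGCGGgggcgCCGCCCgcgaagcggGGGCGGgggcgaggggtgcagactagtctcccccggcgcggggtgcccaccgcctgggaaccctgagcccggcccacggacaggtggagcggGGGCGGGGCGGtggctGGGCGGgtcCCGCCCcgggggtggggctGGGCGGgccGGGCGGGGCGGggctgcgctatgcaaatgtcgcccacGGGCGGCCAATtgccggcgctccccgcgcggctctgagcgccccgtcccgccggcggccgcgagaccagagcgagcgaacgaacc

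The windows differed in base composition. The SEMA5A window was 81.0% G or C, against a median of 58.7% over all 35116 RefSeq windows of this length. SEMA3F had 3 windows, of 81.3% and 80.7% at its upstream starts and below that median at the third, and those of SEMA5B ranged from 42.0% at the upstream start to 74.7% at the middle start. The GC box, found in 45.0% of all windows, matched 7 times in SEMA5A. It matched 12, 2 and 0 times in the 3 SEMA3F windows and 2 times at the middle SEMA5B start, so both genes had a start without one. Of the 18 member windows, 9 held a GC box, 5 a CCAAT box (34.6% of all windows), 1 a TATA box (11.5%), 1 an E-box (7.26%) and 0 an AP-1 site (7.71%). The upstream SEMA5B window had no match to any of the 5 motifs, and its downstream window had 2 CCAAT boxes. Counts per gene do not tell which SEMA5B start was in use, and a match is a run of letters, not a bound site.

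Total counts ran from 66269311 to 131555873 per sample, and levels are given as CPM, read counts scaled to a common library size after TMM normalisation. As a check of the labels, 11 of 14 tubule epithelial markers averaged at least 1 CPM, while 3 markers of differentiated proximal tubule, LRP2, SLC34A1 and HNF4A, had under 200 counts in all. All 14 p53 target genes on the list rose after irradiation, led by CDKN1A, the cell cycle inhibitor p21 (log2 fold change 2.92, SE 0.24, edgeR adjusted p = 9.11e-05), and all 12 cell cycle genes fell, led by MKI67, the Ki-67 proliferation antigen (-2.57, SE 0.39, adjusted p = 0.00141). Control replicates 1 and 3 stood apart from the other controls: the mean log2 CPM of the cell cycle genes was 4.02 and 3.94 in these, 5.31 to 5.39 in the other 3 controls and 2.73 to 3.33 in the irradiated samples. Results are therefore also given without these pairs. Because RNA was measured in bulk, fewer cells expressing a gene and less RNA per cell cannot be told apart.

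Of the 9 semaphorins, 7 reached the 200 counts over all samples needed for the test. SEMA5B was lower in every irradiated sample, whereas 5 of the 6 other tested members (SEMA3A, SEMA3C, SEMA3D, SEMA3F and SEMA5A) rose and 0 fell, at an adjusted p under 0.05. Among all 19006 genes tested, 23.9% rose and 22.7% fell by this rule. These were 4550 and 4307 genes, which became 3609 and 5894 when libraries were scaled by their size alone, with 5 of the 6 members again higher. The median log2 fold change of the 6 was 0.49, against -0.01 over all genes. The count of 0 lower held at an unadjusted p under 0.05 and in DESeq2 and limma-voom, where the same 5 of 6 count was higher; at an unadjusted p all 6 were higher. Without pairing by replicate number the count of risen members was 3. In SEMA3C, SEMA3D and SEMA3F every irradiated sample lay above every control, an arrangement seen in 14.6% of all genes, and none of the 6 showed the reverse, seen in 12.0%.

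**Figure D1:**
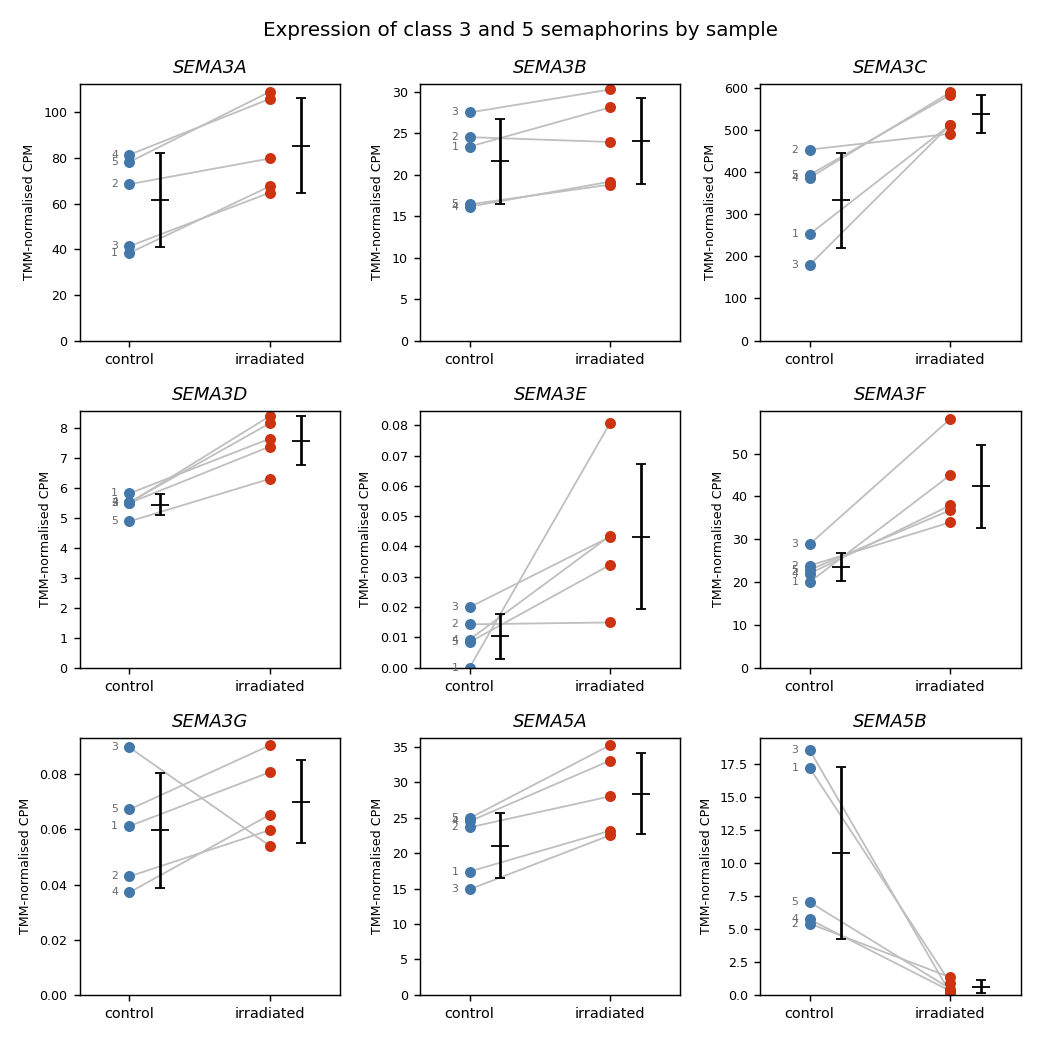
TMM-normalised CPM (vertical axes, each from 0) of the 9 semaphorins in the 5 control (blue) and 5 irradiated (red) samples, with grey lines joining samples of the same replicate number, small digits giving that number, and black bars the mean ± SD. SEMA5B is the only panel in which every line descends, and SEMA3E and SEMA3G stay at or below 0.0905 CPM throughout.

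SEMA5B, a transmembrane ligand best known for repelling axons in the developing brain and retina, had 17.2, 5.39, 18.5, 5.71 and 7.02 CPM in control replicates 1 to 5. In irradiated replicates 1 to 5 it had 0.918, 1.33, 0.140, 0.294 and 0.464 CPM. The groups did not overlap, and the lowest control stood 4.06 times above the highest irradiated sample. On raw counts, its libraries held 615 to 1859 reads in the controls and 13 to 91 after irradiation, so the irradiated values carry more counting error. The group means were 10.8 ± 6.5 and 0.629 ± 0.488 CPM (SD, n = 5 each), and the fitted level was 17.2-fold lower (log2 fold change -4.10, SE 0.56). Of the 19006 genes tested, 3 had a larger fitted fall. This difference is what the gene was chosen for and was not tested.

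The size of the SEMA5B difference varied between pairs. It was -2.00 on the log2 scale in pair 2 and -6.85 in pair 3, with -4.20, -4.19 and -3.86 in pairs 1, 4 and 5. Levels spanned 3.44-fold among controls and 9.47-fold among irradiated samples. The highest controls were replicates 1 and 3, those with low cell cycle gene levels, and without these pairs the fitted difference was -3.26 (SE 0.39). Over 13 alternative fits it lay between -4.69 and -3.26. Within the controls, SEMA5B was thus highest where the cell cycle genes were lowest, while the irradiated samples had low levels of both. Among irradiated samples, replicate 2 had the highest SEMA5B and the lowest cell cycle mean (2.73 log2 CPM). Replicate 3 had the lowest SEMA5B and the highest mean (3.33 log2 CPM), but replicate 1 exceeded replicate 5 in both. The part of the cell cycle genes in these values was not tested.

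**Figure D2:**
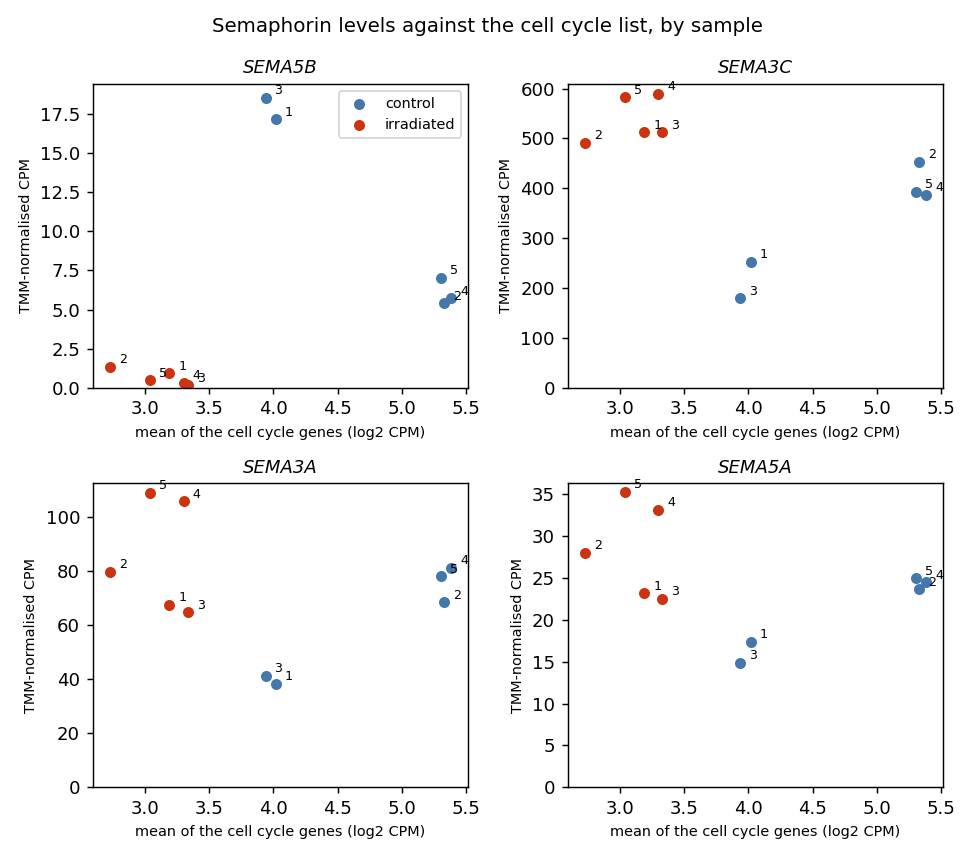
CPM of SEMA5B, SEMA3C, SEMA3A and SEMA5A (vertical axes) against the mean log2 CPM of 12 cell cycle genes (horizontal axes) in each sample, with controls in blue, irradiated samples in red and digits for replicate numbers. Control replicates 1 and 3 lie near 4 on the horizontal axis, with the highest SEMA5B and the lowest SEMA3C, SEMA3A and SEMA5A of the controls.

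SEMA5A, the other class 5 member, moved the opposite way. It had 17.4, 23.6, 14.9, 24.5 and 24.9 CPM in control replicates 1 to 5. After irradiation it had 23.2, 28.0, 22.5, 33.1 and 35.2 CPM. The ranges overlapped, since irradiated replicates 1 and 3 lay below controls 2, 4 and 5, but the irradiated sample was the higher in 5 of 5 pairs. The mean went from 21.1 ± 4.6 to 28.4 ± 5.7 CPM, and the paired fit gave a log2 fold change of 0.44 (SE 0.06, edgeR adjusted p = 0.000789). Without pairing the adjusted p was 0.0667. In CPM per kilobase of exon, the ratio of SEMA5B to SEMA5A was between 0.330 and 1.80 in the controls. It was between 0.00901 and 0.0686 in the irradiated samples.

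SEMA3C, a secreted ligand that acts through both neuropilins and promotes migration in several epithelial and neural crest settings, was the most abundant member. Its controls had 252.6, 453.4, 179.5, 386.4 and 393.4 CPM. The irradiated samples had 512.4, 490.9, 512.2, 589.5 and 582.9 CPM. All irradiated samples lay above all controls, and they were closer together, spanning 1.20-fold against 2.53-fold. The mean rose from 333.1 ± 112.9 to 537.6 ± 45.3 CPM (log2 fold change 0.76, SE 0.18, edgeR adjusted p = 0.00963). Control replicates 1 and 3 were the lowest, and without these pairs the log2 fold change was 0.41 (SE 0.10, adjusted p = 0.0143), with pair differences from 0.11 in pair 2 to 1.51 in pair 3 in the full set.

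SEMA3F, a ligand that signals mainly through neuropilin 2 and was first found in a chromosome region deleted in lung cancer, gave the largest rise. Control levels were 20.0, 23.8, 28.8, 22.0 and 22.8 CPM. Irradiated levels were 45.0, 34.0, 58.1, 37.9 and 36.8 CPM. Each irradiated sample exceeded each control, with replicate 3 the highest in both groups. The means were 23.5 ± 3.3 and 42.3 ± 9.7 CPM, a log2 fold change of 0.83 (SE 0.09, edgeR adjusted p = 0.000335), which was 0.65 (SE 0.06) without pairs 1 and 3.

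SEMA3A, the founding class 3 member, collapses growth cones through neuropilin 1 and A-type plexins. Its controls had 38.4, 68.5, 41.4, 81.4 and 78.3 CPM, and replicates 1 and 3 were again the low ones. The irradiated samples had 67.6, 79.8, 64.8, 106.0 and 109.1 CPM. The groups overlapped, but each pair rose, from 61.6 ± 20.4 to 85.5 ± 20.9 CPM on average (log2 fold change 0.51, SE 0.08, edgeR adjusted p = 0.00196). The value was 0.34 (SE 0.06) without pairs 1 and 3, and the adjusted p was 0.134 without pairing.

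SEMA3D, a ligand with roles in heart and endothelial patterning, was low and, among the controls, the most even of the tested members. Control levels were 5.81, 5.49, 5.49, 5.51 and 4.88 CPM. Irradiated levels were 7.64, 8.39, 7.38, 8.15 and 6.30 CPM, so the groups were apart. The means of 5.44 ± 0.34 and 7.57 ± 0.82 CPM gave a log2 fold change of 0.47 (SE 0.07, edgeR adjusted p = 0.00152), and 0.50 without pairs 1 and 3.

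SEMA3B is a known p53 target gene that lies in the same tumour suppressor region as SEMA3F. It had 23.4, 24.5, 27.5, 16.2 and 16.4 CPM in controls and 28.1, 24.0, 30.3, 19.2 and 18.8 CPM after irradiation. The irradiated sample was higher in 4 of 5 pairs and the groups overlapped. The means were 21.6 ± 5.1 and 24.1 ± 5.2 CPM, and the log2 fold change of 0.16 (SE 0.06) missed the threshold narrowly (edgeR adjusted p = 0.0501). It passed only when pair 2 was left out (0.22, adjusted p = 0.0141), among 13 alternatives. The 14 p53 targets on the list, by contrast, had a median log2 fold change of 1.42.

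SEMA3E and SEMA3G were near the limit of detection. SEMA3E, the plexin D1 ligand, was counted 0, 2, 2, 1 and 1 times in the controls and 8, 1, 4, 4 and 3 times in the irradiated samples. A count of 0 in control replicate 1 allows up to 3 counts, or 0.0367 CPM, and this limit covers counting error only. SEMA3G, an endothelial and podocyte semaphorin, had 5, 6, 9, 4 and 8 counts in controls and 8, 4, 5, 6 and 8 after irradiation, 32 against 31 in total. When the minimum was lowered to 1 count the log2 fold changes were 1.78 (SE 0.82, edgeR adjusted p = 0.152) and 0.21 (SE 0.44, adjusted p = 0.812). Neither passed at this depth. The unadjusted edgeR p was 0.0418 for SEMA3E and 0.642 for SEMA3G. SEMA3E had 6 counts in controls against 20 after irradiation, with the higher CPM in the irradiated sample of 5 of 5 pairs.

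Per kilobase of exon, which allows levels of different genes to be set side by side, SEMA3C exceeded each other member in all 10 samples. It made up 72.8% ± 7.5 of the summed level of the 9 members in controls and 77.5% ± 1.2 after irradiation. Its level was 54.6 ± 18.5 CPM per kilobase in controls, followed by SEMA3A at 6.65, SEMA3F at 4.87, SEMA3B at 3.75, SEMA5A at 1.71, SEMA5B at 1.26, SEMA3D at 0.658, SEMA3G at 0.0118 and SEMA3E at 0.00123. The ranges of SEMA3A and SEMA3F overlapped, as did those of SEMA3F and SEMA3B, of SEMA5A and SEMA5B, and of SEMA5B and SEMA3D. Within samples, SEMA3F was above SEMA3B in 5 of 5 controls, SEMA5B above SEMA3D in 4, and SEMA3A above SEMA3F and SEMA5A above SEMA5B in 3. After irradiation SEMA5B averaged 0.0739 ± 0.0573 CPM per kilobase and went from the 6th to the 7th place, below SEMA3D at 0.917, and was above SEMA3G, at 0.0139, in 5 of 5 samples although the ranges overlapped. The order depended on the length used: per kilobase of the canonical transcript, control means put SEMA3B (6.79) above SEMA3F (6.52) and SEMA5B (2.22), in 5th place, above SEMA5A (1.79), and SEMA5B was again 7th after irradiation. The summed level of the 9 was 73.5 ± 19.2 CPM per kilobase in controls and 113.6 ± 8.5 after irradiation, most of it SEMA3C.

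**Figure D3:**
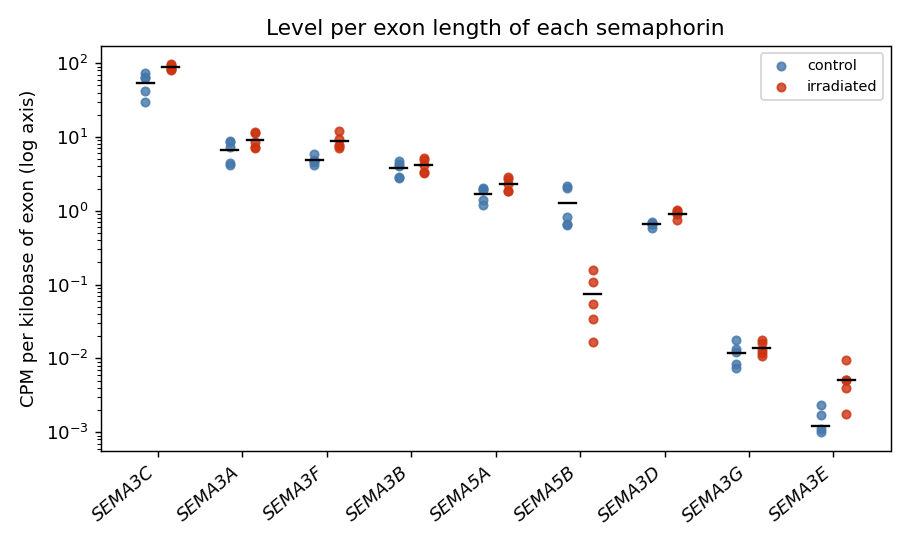
Level of each semaphorin in CPM per kilobase of exon (vertical log axis) for each control (blue) and irradiated (red) sample, with the group mean as a black line and genes in the order of the control means. SEMA3C is the highest throughout, the 5 irradiated SEMA5B samples lie between 0.0165 and 0.156, and the SEMA3E control listed at 0 cannot be drawn on this axis.

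Likeness of pattern was measured as Pearson's r of log2 CPM with SEMA5B over the 10 samples after the mean of each group was subtracted. It describes only how samples of a group vary. Among 12933 genes the highest were DNAH7 (0.96), an axonemal dynein, ZNF224 (0.96) and ZNF667 (0.95), which encode zinc finger proteins, ODAD4 (0.94), a dynein docking factor of cilia, and ABI3BP (0.94), a matrix protein, and 26 genes were above 0.9 and 25 below -0.9. Within groups SEMA3A and SEMA5A also varied together (r = 0.96 over the same 10 samples), and SEMA3A and SEMA3B in opposite directions (r = -0.85). These values share libraries and scaling and carry no test.

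Semaphorins of the remaining classes, which are membrane-bound or anchored, showed no common direction. Of 11 tested, 5 rose and 4 fell, with a median log2 fold change of -0.04. Over all genes tested, 23.9% rose and 22.7% fell, the shares to set beside the counts of this and the later lists. The largest change was a fall of SEMA6B, a ligand of A-type plexins, from 34.0, 34.8, 32.5, 41.4 and 43.0 CPM in controls to 11.6, 12.2, 5.94, 10.2 and 11.9 CPM (log2 fold change -1.87, SE 0.13, edgeR adjusted p = 5.27e-05). The groups were far apart. SEMA4D, the plexin B1 ligand, fell by 0.75 (adjusted p = 0.000607) and SEMA4A by 0.47 (adjusted p = 0.00209) on the log2 scale. SEMA6C fell by 0.33 (adjusted p = 0.0186), a call that was lost without pairing and without replicate 1, 4 or 5.

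**Figure D4:**
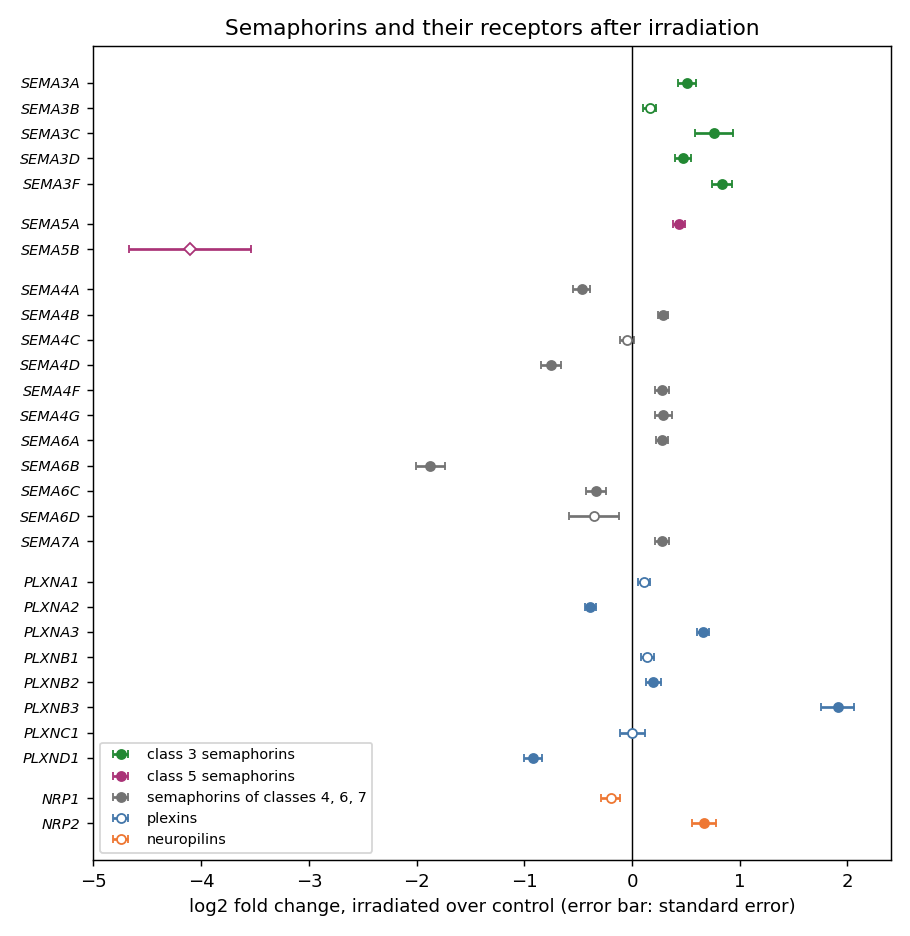
Log2 fold change of irradiated over control samples (horizontal axis, bars are the standard error) for the tested semaphorins, plexins and neuropilins, coloured by class. Filled circles passed an edgeR adjusted p under 0.05, open circles did not, and the open diamond is SEMA5B, shown without a test at -4.10.

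Receptor genes moved both ways. Among the 8 tested plexins 3 rose and 2 fell, against 23.9% and 22.7% of all genes. PLXNA4 with 65 counts was too low to test. PLXNB3, a receptor that binds SEMA5A, rose from 5.05, 2.57, 2.06, 3.27 and 2.06 CPM in controls to 14.3, 9.08, 11.6, 9.78 and 9.42 CPM (log2 fold change 1.91, SE 0.15, edgeR adjusted p = 7.98e-05). The groups were apart, yet even then it was among the scarcer plexins at 1.55 CPM per kilobase. PLXNA3, used with neuropilin 2 by SEMA3F, rose from 61.7 ± 17.0 to 96.2 ± 19.4 CPM (0.66, SE 0.05, adjusted p = 8.21e-05). PLXNB2, the most abundant plexin at 115 CPM per kilobase in controls, rose by a small amount (0.20, SE 0.07, adjusted p = 0.0447) and did not pass in 8 of 13 alternatives.

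PLXND1, the direct receptor of SEMA3E, fell from 61.6, 59.7, 66.1, 66.5 and 63.4 CPM to 33.9, 40.3, 30.4, 30.6 and 33.7 CPM (log2 fold change -0.92, SE 0.08, edgeR adjusted p = 0.000130). All irradiated samples were below all controls. PLXNA2, a partner of neuropilin 1 in SEMA3A signalling, fell from 49.1 ± 8.1 to 37.3 ± 3.4 CPM (-0.39, SE 0.05, adjusted p = 0.000597). The values of PLXNA1 (0.11, adjusted p = 0.130) and PLXNB1 (0.14, adjusted p = 0.0956) did not pass in the full set and passed without pairs 1 and 3 (0.17 and 0.22). PLXNC1, the SEMA7A receptor, was at 1.44 CPM in both groups (log2 fold change 0.00, SE 0.11, adjusted p = 0.983).

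Of the neuropilins, NRP2, the co-receptor preferred by SEMA3F, had 35.5, 59.8, 79.2, 59.8 and 51.6 CPM in controls and 69.6, 88.7, 89.7, 98.7 and 96.0 CPM after irradiation. It rose in each pair although the ranges overlapped (log2 fold change 0.67, SE 0.11, edgeR adjusted p = 0.00186). NRP1, the SEMA3A co-receptor, had 238.8 ± 33.5 and 209.0 ± 34.4 CPM (-0.20, SE 0.09, adjusted p = 0.104). It passed as lower in 3 of 13 alternatives, with scaling by library size alone (-0.27, adjusted p = 0.0391), a minimum of 1 count (-0.23, adjusted p = 0.0187) and without replicate 2 (-0.28, adjusted p = 0.0126). Per kilobase NRP1 remained the more abundant, at 20.7 against 4.11 CPM in controls and 18.1 against 6.37 after irradiation.

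Of 24 genes for plexin partners and downstream proteins, 20 were tested, of which 11 rose and 2 fell (median log2 fold change 0.23). The shares of all genes that rose and fell were 23.9% and 22.7%. MICAL2, an oxidoreductase that disassembles actin, rose from 23.0 ± 5.1 to 105.0 ± 25.7 CPM (2.19, edgeR adjusted p = 8.39e-05). RND1, which binds plexins inside the cell, rose from 0.572 ± 0.179 to 1.99 ± 0.46 CPM (1.78, adjusted p = 0.00147). MET, the hepatocyte growth factor receptor and a partner of B-type plexins, rose from 225.9 ± 36.2 to 490.4 ± 46.5 CPM (1.13, adjusted p = 8.57e-05). CRMP1, which relays SEMA3A signals to the cytoskeleton, rose by 0.93 (adjusted p = 5.76e-05). L1CAM, a component of the SEMA3A receptor complex, fell by 0.78 and ERBB2, another B-type plexin partner, by 0.27 on the log2 scale.

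Among 5 secreted or Golgi proteases, furin-like convertases and ADAMTS1, 3 rose and 1 fell. PCSK5 rose from 108.8 ± 9.8 to 206.2 ± 28.1 CPM (log2 fold change 0.92, edgeR adjusted p = 7.43e-05), and ADAMTS1, which releases SEMA3C from the matrix, from 611.3 ± 121.0 to 820.7 ± 63.9 CPM (0.44, adjusted p = 0.0133), a call lost without replicate 4 or 5. PCSK7 rose by 0.36 (adjusted p = 0.00102) and PCSK6 fell by 1.37 (adjusted p = 0.000530) on the log2 scale. FURIN itself had 279.1 ± 25.0 and 285.1 ± 19.3 CPM (0.03, adjusted p = 0.573). Of the 8 vascular endothelial growth factor genes listed as ligands or receptors, only 3 ligands reached the count minimum, and these fell: VEGFA from 784.6 ± 172.2 to 348.7 ± 69.8 CPM (-1.17, adjusted p = 0.00171), PGF by 1.42 (adjusted p = 0.00136) and VEGFB by 0.38 (adjusted p = 0.00231).

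Other guidance families, read in the same samples, were split as well. Of the 15 netrin, SLIT and repulsive guidance genes tested, 5 rose and 5 fell, and of the 16 ephrin and Eph genes 7 rose and 5 fell. Among all genes 23.9% rose and 22.7% fell, so both directions are not particular to these families. ROBO1, a SLIT receptor, rose by 3.07 from a low level of 0.156 ± 0.024 CPM (edgeR adjusted p = 2.83e-05) and SLIT2, its ligand, fell by 1.55 on the log2 scale (adjusted p = 3.16e-05). NTN1, the netrin 1 gene, had a log2 fold change of 2.63 and UNC5A, a netrin receptor, one of 1.33. In the Eph family, EPHB3 fell by 3.11 and EFNB3 by 1.36, while EPHA10 rose by 1.97 and EFNB1 by 1.47.

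Protein-coding genes between the clustered members were checked by position, and noncoding genes were not. On chromosome 7, HGF (5 counts in all) and CACNA2D1 (108 counts) were too low to test and PCLO had a log2 fold change of 0.30 (edgeR adjusted p = 0.136). Between SEMA3F and SEMA3B, GNAI2 rose by 0.32 (adjusted p = 0.00267), SLC38A3 fell by 2.76 (adjusted p = 0.00160) and GNAT1 had 4 counts. SLC38A3 was scarce, with 380 counts in all, and its groups overlapped (0.686 ± 0.755 CPM in controls, 0.0899 ± 0.0603 after irradiation). The called genes between SEMA3F and SEMA3B thus had both directions. On chromosome 7 only PCLO was tested, and it was not called.

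Markers of other cell types were compared because several of them also express these ligands. The summed level of 6 endothelial markers was 2.47 to 4.16 CPM in controls and 5.27 to 6.88 CPM after irradiation, and that of 6 stromal markers 19.8 to 27.1 and 33.7 to 45.6 CPM. These ranges did not overlap, with 3 of 6 endothelial and 3 of 6 stromal markers at a mean of at least 1 CPM, and TEK, EMCN, COL3A1, PDGFRB and LUM under 200 counts in all. The 4 tested endothelial markers went different ways: CDH5, the endothelial cadherin, rose from 0.596 ± 0.248 to 3.31 ± 0.94 CPM and PECAM1 from 0.860 ± 0.282 to 1.40 ± 0.31 CPM, ESAM fell from 1.61 ± 0.47 to 0.945 ± 0.266 CPM (log2 fold change -0.76, edgeR adjusted p = 0.000626), and VWF had a log2 fold change of -0.02 (adjusted p = 0.965). The 3 tested stromal markers, COL1A1, DCN and ACTA2, rose. COL1A1 went from 18.8 ± 3.3 to 32.15 ± 4.67 CPM, with the groups apart. DCN (0.315 ± 0.195 to 1.75 ± 1.59 CPM) and ACTA2 (3.99 ± 0.37 to 5.47 ± 1.77 CPM) overlapped between groups. Both were highest in irradiated replicate 2, at 4.45 and 8.59 CPM. The other irradiated samples had at most 1.61 CPM of DCN and 5.22 CPM of ACTA2. Leukocyte markers summed to at most 1.37 CPM, with 0 of 6 at 1 CPM. The sums of 5 podocyte markers (17.7 to 40.5 and 23.9 to 34.0 CPM) and 6 neural markers (87.9 to 127.1 and 99.7 to 128.0 CPM) overlapped between groups. The part of these markers in the semaphorin values was not tested.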

How the data were processed

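The authors deposited 1 table of raw read counts per gene for 5 control and 5 irradiated samples. Their poly-A, 150 bp paired-end reads were trimmed with Trim-Galore (Cutadapt v2.8), aligned to GRCh38 and counted with STAR (v2.7.9a); the labels and methods name different kits, so strand use is uncertain. Genes with at least 200 counts over all samples (19006) were TMM-scaled and tested with edgeR 4.0.16 (R 4.3.3) quasi-likelihood tests, with replicate number as a block as in the study's methods and Benjamini-Hochberg adjustment over all genes. Same-numbered samples deviated together (r 0.217 to 0.508 in 5 of 5 pairs, other pairs -0.354 to 0.317). Replicates 4 and 5 were also alike across the groups. Control 4 with irradiated 5 gave 0.295 and control 5 with irradiated 4 gave 0.317, above the 0.217 of pair 2. By a chi-square of their counts, replicates 4 and 5 were the closest samples within each group (13.1 per gene in controls, 7.68 after irradiation). The largest values were 186.6 for control replicates 3 and 4 and 81.5 for irradiated replicates 2 and 3. The 5 pairs may therefore not be equally independent. Standard errors are the log2 fold change over the square root of F. Exon lengths came from GENCODE 44. Alternatives were DESeq2 1.42.0, limma-voom (limma 3.58.1), other scalings and filters, no block, each replicate left out and, added after seeing the data, pairs 1 and 3 left out. Members and lists were chosen with earlier results of these data known. Named were all members, tested plexins and neuropilins, and the 4 called genes of each list with the largest change. Also named were the 5 genes most like SEMA5B and protein-coding genes between clustered members. Chosen after their values were seen were L1CAM, ERBB2, FURIN, the tubule, endothelial and stromal markers, and SEMA3A with SEMA5A and SEMA3B in correlations.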

Additional observations from a re-analysis of the deposited data

Results flagged for a closer look

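In groups of 5 samples, a highest or lowest sample was taken to stand apart when its gap to the nearest other sample exceeded 0.71 of the group's range (Dixon's test). The 96 groups were those of the 7 tested semaphorins and of the genes named by rule from the lists. This held in 5 of the 96, close to the 4.8 that the error rate of 1 in 20 gives by chance. It held in 0 groups of the 7 tested semaphorins. SEMA3E, SEMA3G, the genes most like SEMA5B and the genes between clustered members were not included. Nor were L1CAM, ERBB2, FURIN and the cell type markers. Irradiated replicate 2 stood above the other irradiated samples in PLXNC1 (1.73 CPM, others 1.31 to 1.41), in PCSK6 (34.9 CPM, others 10.3 to 16.2) and in EPHB3 (1.82 CPM, others 0.194 to 0.599). This sample also had the highest SEMA5B of its group. Control replicate 3 stood above the other controls in ADAMTS1 (819 CPM, others 504 to 596) and in CDKN1A (207.6 CPM, others 66.7 to 80.9), and it had the highest control SEMA5B.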

How the results depend on the processing

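The count of 5 risen members was 5 in 11 of 13 alternatives, 6 without replicate 2, and 3 without the replicate block, where SEMA3A and SEMA5A missed the threshold. Leaving out 1 replicate at a time gave 5 to 6 higher and 0 lower. Without the block 3640 genes rose and 3366 fell in all, and 3 of the other semaphorins rose. Scaling by library size alone gave 3609 genes higher and 5894 lower in place of 4550 and 4307, with 4 signalling and 8 ephrin or Eph genes lower. Without replicate 1, 3 netrin, SLIT and repulsive guidance genes and 2 ephrin or Eph genes fell, and without replicate 4 or 5, 3 of the latter. A minimum of 1 count gave 1 risen gene in the vascular endothelial growth factor list. The PLXNC1 difference was near 0 and changed sign in limma-voom (-0.0026), with filterByExpr (-0.0024), upper-quartile scaling (-0.0291), library size only (-0.0722), a minimum of 1 count (-0.0321), no replicate block (-0.01), without replicates 1 and 3 (-0.1353), and with 1 replicate left out (-0.069 to 0.078). The causes of these shifts were not tested. Depth limited SEMA3E and SEMA3G.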
